A study of Homo sapiens with 12 samples.

Results

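VCaP cells treated with the antiandrogen enzalutamide were compared with vehicle-treated VCaP cells. The comparison took 6 of the 12 arrays of the series: 3 of cells given 10 µM enzalutamide without dexamethasone and 3 of cells given the vehicle DMSO. The remaining arrays held 3 of cells given 0.1 nM dihydrotestosterone (DHT, an androgen) and 3 of cells given 10 µM enzalutamide together with 100 nM dexamethasone (a glucocorticoid). All cultures were grown in complete medium as biological triplicates and were harvested after 24 h. Arrays were assigned to groups by the treatment in their labels. VCaP is an established human prostate cancer line that carries a fusion joining the androgen-responsive TMPRSS2 gene to the ERG oncogene. It is a single line, so the 3 arrays of a group measured the spread between cultures and not between tumours.

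The androgen receptor is a steroid-activated transcription factor. Once bound by androgen it enters the nucleus, binds response elements in DNA and raises prostate genes such as the kallikreins, while another set of genes falls. Enzalutamide competes with androgen for the receptor and is used against advanced prostate cancer. Complete medium holds serum, which carries steroid hormones, and the vehicle cells were therefore not free of androgen. The comparison asked what the antagonist changed against that background.

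Levels are given as log2 intensities after background correction and quantile normalization, and changes as log2 enzalutamide minus vehicle ± SE of a linear model over all 12 arrays (n = 3 arrays a group). Adjusted p-values are limma's, adjusted by the Benjamini-Hochberg method over the 11414 genes that had a probe detected on at least 3 arrays. A gene was said to have changed when this value was under 0.05. A change in bulk RNA cannot tell fewer cells of a kind from less RNA per cell. Between 17272 and 17846 probes were detected on the enzalutamide arrays, against 15852 to 18352 on the vehicle arrays, of 47322 in all. Vehicle replicate 3 stood apart as the dimmest array, with a mean intensity of 198.7, against 270.7 to 340.4 on the enzalutamide arrays and 286.6 and 340.5 on the other vehicle arrays. Of 8 luminal prostate markers on the array, 7 were detected on all 6 arrays (KLK3 is the other one). Of 4 basal markers, the keratins KRT5 and KRT14 were detected on none, and KRT15 and NGFR on some of the 6 arrays.

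Enzalutamide changed 209 genes (1.83% of those tested). They comprised 95 that rose (0.832%) and 114 that fell (0.999%). Most changes were modest in size: the median among the called genes was 0.58, and 49 of the rises and 55 of the falls reached 1.5-fold. At 2-fold there were 5 rises and 10 falls. In all 209 genes the 3 enzalutamide arrays lay entirely above or entirely below the 3 vehicle arrays, which 20.1% of all tested genes also did. The genes that fell had a median vehicle level of 7.82 and those that rose one of 7.34, against 6.99 over all genes.

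The number of calls depended on every one of the 6 arrays. It was 77, 80 and 82 without enzalutamide replicate 1, 2 or 3, and 106, 128 and 133 without vehicle replicate 1, 2 or 3, and 58 of the 209 genes (24 up and 34 down) were called in all 6 of these fits. No called gene changed its sign in any of them. Arrays were also scaled only to equal medians over all probes, without quantile normalization, which is called median scaling below. It called 48 genes, 34 of them up and 14 down (70.8% up, against 45.5% in the main analysis). That scaling moved the median change of all genes to 0.13, and 42 of the 209 were still called. With the median taken instead over the kept probes, those detected on at least 3 arrays, 141 genes were called, 67 up and 74 down. The median change of all genes was then -0.011, and 130 of the 209 were still called.

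**Figure D1:**
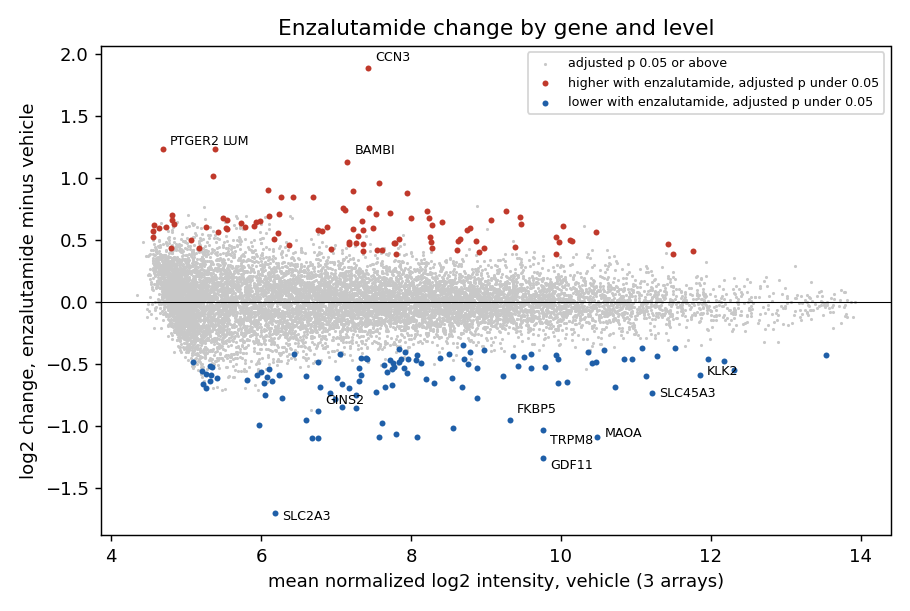
Log2 change with enzalutamide (vertical axis) against the mean log2 intensity of the 3 vehicle arrays (horizontal axis), 1 point per gene for 11414 genes, with the 95 genes that rose and the 114 that fell coloured. CCN3 lies alone at the top (1.89) and SLC2A3 alone at the bottom (-1.70), while KLK2, SLC45A3, MAOA and TRPM8 fell from levels above 9.

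Of 53 listed androgen-induced genes, 23 fell (0.999% of all genes did) and 0 rose by limma's test. At an unadjusted p under 0.05, 33 were lower and 2 higher, against 6.64% and 7.9% of all genes. Among the falls counted, GRIN3A was also lower with DHT (DHT minus vehicle -0.85 ± 0.12, adjusted p = 0.000489). MAOA (-0.02 ± 0.08, adjusted p = 0.918) and PMEPA1 (0.32 ± 0.11, adjusted p = 0.055) did not pass the test with DHT. These arrays thus do not show androgen induction of GRIN3A or MAOA, and the higher PMEPA1 level with DHT was not called. The list median was -0.35, against 0.01 over all genes. In 33 of the 53 the enzalutamide arrays lay wholly below the vehicle arrays, which 9.67% of all tested genes did. Some members were put on the list with their changes in these arrays known, so the count is not independent evidence of its direction. Leaving out 1 array gave 13 to 16 falls (13 without any of the enzalutamide arrays, and 16, 15 and 16 without vehicle replicate 1, 2 or 3), and median scaling gave 9. With the median over the kept probes there were 16 falls.

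The kallikreins are secreted proteases of the prostatic fluid. KLK2 measured 11.23, 11.28 and 11.28 on the enzalutamide arrays and 11.76, 11.89 and 11.90 on the vehicle arrays, a change of -0.59 ± 0.08 (adjusted p = 0.00295, and 0.604 under median scaling). KLK3, which encodes prostate-specific antigen, measured 4.78, 4.56 and 4.71 with enzalutamide and 5.37, 5.07 and 5.36 with vehicle (-0.58 ± 0.12, adjusted p = 0.028). Its probe was detected on 0 enzalutamide arrays and on all 3 vehicle arrays, so the measured change is a bound: with undetected values set to the lowest detected signal of their array, KLK3 was at least 1.22-fold lower. The KLK3 call was lost without any single array but vehicle replicate 2 (adjusted p up to 0.114).

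KLK3 also held the one androgen response element found upstream of the androgen-induced genes that fell. The motif, AGAACA followed by a gap of 3 bases and TGTTCT, reads the same on both strands. It was searched with up to 2 mismatches in its 12 fixed letters over the 250 bases before each gene's start, using RefSeq promoters of GRCh38.p14 for 9208 of the tested genes. It was present in 54 of these (0.586%) and in 1 of the 17 fallen androgen-induced genes with a promoter (5.88%). Among all called genes it was present in 2 of 94 that fell (2.13%, KLK3 and RNF41) and in 3 of 72 that rose (4.17%). The KLK3 match starts 170 bases before the start site, on the plus strand at chr19:50854700-50854804, and is shown because this element is the textbook receptor site of the gene, with the matched letters in capitals.
KLK3: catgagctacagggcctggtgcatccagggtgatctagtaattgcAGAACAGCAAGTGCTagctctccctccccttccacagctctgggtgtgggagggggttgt

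Both genes of the fusion fell, as did SLC45A3, and these were the 3 calls among 19 tested ERG-associated genes (0.999% of all genes fell). TMPRSS2, the membrane serine protease gene whose promoter drives the fusion, measured 9.84, 9.99 and 9.92 with enzalutamide and 10.36, 10.45 and 10.42 with vehicle (-0.49 ± 0.08, adjusted p = 0.0103). ERG, an ETS transcription factor, measured 5.44, 5.18 and 5.28 on the enzalutamide arrays and 6.07, 5.87 and 6.21 on the vehicle arrays (-0.75 ± 0.10, adjusted p = 0.00337). SLC45A3, a prostate transporter that is itself a recurrent fusion partner, measured 10.57, 10.47 and 10.39 with enzalutamide and 11.32, 11.17 and 11.16 with vehicle (-0.74 ± 0.08, adjusted p = 0.00107). The TMPRSS2 call was lost without enzalutamide replicate 1 (adjusted p = 0.0542), and all 3 calls were lost under median scaling (adjusted p = 0.755 for TMPRSS2, 0.274 for ERG and 0.347 for SLC45A3). With the median over the kept probes 3 genes of the list fell.

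SLC2A3, the glucose transporter GLUT3, had the largest fall of all genes. It measured 4.60, 4.49 and 4.35 with enzalutamide, where its probe was detected on no array, and 6.34, 6.15 and 6.06 with vehicle. It was at least 2.31-fold lower (adjusted p = 3.86e-05). Next to it, none of the other 30 tested genes of glucose uptake and glycolysis passed the test, and 5 of the list of 31 were lower at an unadjusted p under 0.05.

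FKBP5, a co-chaperone of steroid receptors, measured 8.32, 8.47 and 8.29 on the enzalutamide arrays and 9.37, 9.17 and 9.41 on the vehicle arrays (-0.96 ± 0.10, adjusted p = 0.000407). TRPM8, a cold- and menthol-gated calcium channel of prostate epithelium, measured 8.77, 8.68 and 8.72 with enzalutamide and 9.73, 9.79 and 9.76 with vehicle (-1.03 ± 0.10, adjusted p = 0.000304). MAOA, the mitochondrial enzyme that oxidizes serotonin and noradrenaline, measured 9.39, 9.37 and 9.43 with enzalutamide and 10.55, 10.51 and 10.41 with vehicle (-1.09 ± 0.08, adjusted p = 6.88e-05). The gaps between the groups were several times the spread within either one for these 3 genes, and each was called in all 6 fits that left out 1 array and under median scaling.

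EAF2, which binds the transcription elongation protein ELL, measured 5.62, 5.82 and 5.52 with enzalutamide and 6.67, 6.77 and 6.82 with vehicle (-1.10 ± 0.11, adjusted p = 0.000407). ZBTB16, a zinc finger repressor also called PLZF, measured 7.53, 7.53 and 7.59 with enzalutamide and 8.61, 8.51 and 8.58 with vehicle (-1.01 ± 0.09, adjusted p = 0.00015). The nuclease-domain gene ENDOD1 changed by -1.09 ± 0.10, the myosin-binding protein gene MYBPC1 by -1.09 ± 0.14 and the NMDA receptor subunit gene GRIN3A by -1.10 ± 0.12. The desmosomal plakophilin gene PKP1, which is not on the androgen-induced list, changed by -0.98 ± 0.10. It did not pass the test with DHT (0.09 ± 0.10, adjusted p = 0.618). Further prostate membrane proteins on the androgen-induced list fell less. STEAP1, a metalloreductase-family surface antigen, measured 10.56, 10.53 and 10.55 with enzalutamide and 11.20, 11.25 and 10.98 with vehicle (-0.60 ± 0.09, adjusted p = 0.0054, and 0.619 under median scaling), and the nucleotide exporter gene ABCC4 changed by -0.44 ± 0.09 (adjusted p = 0.0251), a call lost without any single array (adjusted p up to 0.0995).

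The response was not shared by every androgen-induced gene. Of the 53, 11 had a change above 0 (51.4% of all genes did) and 30 did not pass the test. HPGD, which inactivates prostaglandins, measured 8.53, 8.44 and 8.47 with enzalutamide and 8.22, 8.16 and 8.39 with vehicle (0.22 ± 0.09, adjusted p = 0.283). ERRFI1, a feedback inhibitor of the EGF receptor, measured 8.56, 8.69 and 8.55 with enzalutamide and 8.46, 8.56 and 8.55 with vehicle (0.08 ± 0.09, adjusted p = 0.766). Both were well above background, and neither fell on the enzalutamide arrays.

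**Figure D2:**
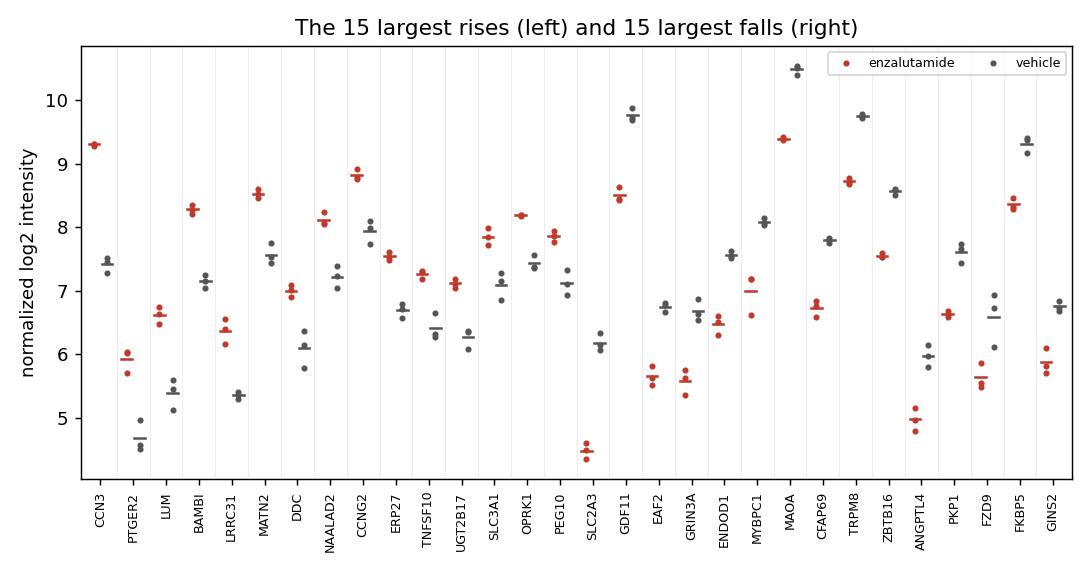
Normalized log2 intensity on each enzalutamide array (red, left in each pair) and vehicle array (grey, right) for the 15 largest rises and the 15 largest falls among called genes, with a bar at each group's mean. The groups do not overlap for any of the 30 genes, and the FZD9 vehicle arrays have the widest spread, 6.12 to 6.94.

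Of 25 listed androgen-repressed genes, 11 rose (0.832% of all genes did), 1 fell and 13 did not pass the test. The list median was 0.42, against 0.01 over all genes. Among the rises counted, UGT2B15, detected on 0 vehicle arrays, did not pass the test with DHT (DHT minus vehicle -0.14 ± 0.12, adjusted p = 0.493). These arrays thus do not show androgen repression of UGT2B15. This list also has members added with these arrays' results known. CCN3, a secreted matricellular growth regulator, had the largest rise of all genes. It measured 9.29, 9.32 and 9.32 on the enzalutamide arrays and 7.29, 7.45 and 7.52 on the vehicle arrays (1.89 ± 0.12, 3.7-fold, adjusted p = 2.35e-05). Its enzalutamide arrays lay within 0.03 of each other as printed.

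DDC, which makes dopamine and serotonin from their amino acid precursors, measured 7.10, 7.01 and 6.91 with enzalutamide and 6.15, 6.37 and 5.78 with vehicle (0.91 ± 0.13, adjusted p = 0.00424). DDC synthesizes monoamines and MAOA degrades them, and the first rose while the second fell. OPRK1, the kappa opioid receptor, measured 8.18, 8.20 and 8.20 with enzalutamide and 7.38, 7.56 and 7.36 with vehicle (0.76 ± 0.11, adjusted p = 0.0064). LRRC31, a leucine-rich repeat protein, measured 6.40, 6.55 and 6.16 with enzalutamide and 5.30, 5.40 and 5.36 with vehicle (1.02 ± 0.12, adjusted p = 0.00109). The subunit of the cystine and dibasic amino acid carrier encoded by SLC3A1 measured 7.85, 7.99 and 7.73 with enzalutamide and 7.28, 6.85 and 7.15 with vehicle (0.76 ± 0.13, adjusted p = 0.0136), a call lost without enzalutamide replicate 1 or 2 (adjusted p up to 0.0619).

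TMEFF2, a transmembrane protein with follistatin domains, was the 1 listed gene that fell (0.999% of all genes did). It measured 11.50, 11.54 and 11.45 with enzalutamide and 11.84, 12.05 and 11.98 with vehicle (-0.46 ± 0.08, adjusted p = 0.0189), and the call was lost without any single array but vehicle replicate 1 (adjusted p up to 0.0795). Rises in the list numbered 5, 6 and 6 without enzalutamide replicate 1, 2 or 3, 6, 9 and 9 without vehicle replicate 1, 2 or 3, and 7 under median scaling. With the median over the kept probes there were 10 rises.

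Of 18 tested genes of androgen synthesis and inactivation 3 rose (0.832% of all genes did) and 1 fell (0.999% of all genes did). UGT2B17, which glucuronidates testosterone and DHT for excretion, measured 7.19, 7.11 and 7.04 with enzalutamide and 6.36, 6.09 and 6.35 with vehicle (0.85 ± 0.11, adjusted p = 0.0032). Its near-identical relative UGT2B15 was detected on 3 enzalutamide arrays and 0 vehicle arrays and was at least 1.12-fold higher (adjusted p = 0.0273). Cross-hybridization between the pair was not tested.

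AKR1C3, which reduces androstenedione to testosterone and also makes a prostaglandin, measured 10.60, 10.54 and 10.69 with enzalutamide and 10.12, 10.02 and 10.20 with vehicle (0.50 ± 0.09, adjusted p = 0.0176). HSD17B6, an enzyme of androstanediol oxidation, measured 6.33, 6.05 and 6.19 with enzalutamide and 7.01, 6.86 and 6.90 with vehicle (-0.73 ± 0.09, adjusted p = 0.00193). The calls of UGT2B17 and HSD17B6 held without each array in turn, and that of HSD17B6 was lost under median scaling (adjusted p = 0.377). Those of UGT2B15 and AKR1C3 were lost without 4 of the 6 arrays each, enzalutamide replicate 1 or 3 and vehicle replicate 1 in both cases, plus vehicle replicate 3 for UGT2B15 and vehicle replicate 2 for AKR1C3 (adjusted p up to 0.116 and 0.0779).

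Several of the largest rises were signalling and matrix genes outside these lists. BAMBI, a decoy receptor that blocks TGF-beta and BMP signals, measured 8.21, 8.28 and 8.36 with enzalutamide and 7.05, 7.25 and 7.16 with vehicle (1.13 ± 0.11, adjusted p = 0.00034). PTGER2, the prostaglandin E2 receptor EP2, measured 6.04, 6.02 and 5.71 with enzalutamide and 4.58, 4.97 and 4.50 with vehicle, where 1 array detected it (1.24 ± 0.13, adjusted p = 0.000623). MATN2, a filament-forming matrix protein, measured 8.61, 8.46 and 8.53 with enzalutamide and 7.75, 7.44 and 7.53 with vehicle (0.96 ± 0.10, adjusted p = 0.000623). All 3 were called in every fit that left out 1 array and under median scaling.

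LUM, which encodes the collagen-binding proteoglycan lumican, measured 6.64, 6.75 and 6.47 with enzalutamide and 5.45, 5.59 and 5.12 with vehicle (1.24 ± 0.17, adjusted p = 0.00337). It also marks stromal cells. Of 14 stromal and endothelial markers on the array 6 were detected on none of the 6 arrays, DCN, PDGFRA, PDGFRB, THY1, FAP and CDH5. The summed level of all 14 was 554.4 to 566.3 with enzalutamide and 490 to 558.2 with vehicle on the linear scale, and this sum contains LUM. Among 25 matrix genes tested CCN3, LUM and MATN2 were the 3 that rose (0.832% of all genes did), and 0 fell by limma's test (4 at an unadjusted p under 0.05).

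Of 28 TGF-beta and BMP genes tested, BAMBI and the corepressor gene TGIF1 rose (0.832% of all genes did). GDF11, BMPR1B and PMEPA1 fell (0.999% of all genes did). GDF11, a TGF-beta family ligand, had the second largest measured fall, with 8.63, 8.43 and 8.45 on the enzalutamide arrays and 9.70, 9.88 and 9.72 on the vehicle arrays (-1.26 ± 0.09, adjusted p = 3.86e-05). A second GDF11 probe changed in the opposite direction, and with the mean of both probes GDF11 was not called (-0.44 ± 0.13, adjusted p = 0.1). BMPR1B, a BMP receptor kinase, measured 6.96, 6.98 and 6.96 with enzalutamide and 7.63, 7.79 and 7.54 with vehicle (-0.68 ± 0.10, adjusted p = 0.00397, and 0.545 under median scaling), and the mean of its probes was not called (-0.41, adjusted p = 0.0836). PMEPA1, an inhibitor of SMAD signalling that androgen is known to induce, changed by -0.55 ± 0.11 (adjusted p = 0.0253), and its call was lost without any single array but vehicle replicate 2 (adjusted p up to 0.0936). Its DHT change did not pass the test here (0.32 ± 0.11, adjusted p = 0.055).

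Growth-restraining genes were among the rises. CCNG2, an unconventional cyclin linked to cell cycle arrest, measured 8.91, 8.76 and 8.79 with enzalutamide and 7.73, 8.10 and 7.99 with vehicle (0.88 ± 0.11, adjusted p = 0.00193). SESN1, a stress-induced inhibitor of mTORC1, measured 8.87, 8.96 and 8.99 with enzalutamide and 8.16, 8.16 and 8.31 with vehicle (0.73 ± 0.09, adjusted p = 0.0013). TNFSF10, the death ligand TRAIL, measured 7.19, 7.31 and 7.30 with enzalutamide and 6.28, 6.66 and 6.32 with vehicle (0.85 ± 0.12, adjusted p = 0.00457). No array of one group reached into the other for any of these 3 genes. The list of 33 cell cycle brakes and G1 regulators had 2 rises, CCNG2 and SESN1 (0.832% of all genes rose). Its 1 fall (0.999% of all genes fell) was the S-phase kinase CDK2 (-0.54 ± 0.10, adjusted p = 0.0166). The CDK2 call was lost without any 1 of the enzalutamide arrays and, at an adjusted p of 0.0861, with the mean of the CDK2 probes. Of 27 apoptosis genes tested 0 passed limma's test in either direction, and 4 were higher and 1 lower at an unadjusted p under 0.05.

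Of 50 DNA replication genes tested, 11 fell (0.999% of all genes did) and 0 rose by limma's test. At an unadjusted p under 0.05, 26 were lower and 0 higher, against 6.64% and 7.9% of all genes. The list median was -0.25, and 42 of the 50 were below 0, as were 48.6% of all genes. CDC45, which unwinds DNA with the MCM ring and GINS in the replicative helicase, measured 8.13, 8.03 and 8.14 with enzalutamide and 8.86, 8.87 and 8.90 with vehicle (-0.78 ± 0.08, adjusted p = 0.000366). GINS2, a GINS subunit, measured 5.71, 6.09 and 5.82 with enzalutamide and 6.74, 6.69 and 6.84 with vehicle (-0.88 ± 0.14, adjusted p = 0.00837). MCM4, of the MCM ring, measured 7.87, 8.08 and 8.02 with enzalutamide and 8.78, 8.65 and 8.61 with vehicle (-0.69 ± 0.09, adjusted p = 0.0019). UHRF1, which carries DNA methylation through replication, measured 6.87, 6.85 and 6.70 with enzalutamide and 7.54, 7.63 and 7.43 with vehicle (-0.73 ± 0.10, adjusted p = 0.00337).

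These 4 were called in every fit that left out 1 array. The other 7 were the helicase subunits MCM2 and MCM5, the initiation factors MCM10 and CDT1, the clamp loader subunit RFC2, the flap nuclease FEN1 and the transcription factor E2F2, with changes between -0.48 and -0.66. E2F2 lost its call without enzalutamide replicate 3, and the rest lost theirs without any of the enzalutamide arrays and without 1 or 2 of the vehicle arrays. A second RFC2 probe had the opposite sign. The falls in the list numbered 5, 5 and 4 without enzalutamide replicate 1, 2 or 3, and 6, 7 and 9 without vehicle replicate 1, 2 or 3. Under median scaling 0 of the 50 were called by limma and 8 fell at an unadjusted p under 0.05, with a list median of -0.13, against 0.13 over all genes. With the median over the kept probes limma called 8 falls.

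Of 55 mitotic genes tested, 34 had a change above 0, as did 51.4% of all genes, and the median was 0.04. The only call was a fall (0.999% of all genes fell), of the condensin subunit NCAPD3, which is also on the androgen-induced list (-0.61 ± 0.12, adjusted p = 0.0275). That call was lost without any of the enzalutamide arrays or vehicle replicate 2 (adjusted p up to 0.113) and under median scaling (adjusted p = 0.621). Of 35 DNA repair and checkpoint genes only the kinase gene CHEK1 was called, and fell (-0.60 ± 0.11, adjusted p = 0.0206), as did 0.999% of all genes. That call was lost without any single array but enzalutamide replicate 2. Of the 35, 26 had a change below 0, as did 48.6% of all genes.

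E2F sites were looked for upstream of the replication genes. E2F factors switch on S-phase genes, and their sites TTTGGCGC and TTTCCCGC were searched without mismatch on both strands of the 250 bases before each start. One or the other was present in 281 of the 9208 promoters (3.05%), in 14 of the 45 tested replication genes that had a promoter (31.1%) and in 4 of the 9 that fell (44.4%). Among all called genes it was present in 9 of 94 that fell (9.57%) and in 3 of 72 that rose (4.17%). A match is a description of sequence and does not show binding. The windows of these 4 are given to show how close to the start site the motif (in capitals, in the reading direction of the gene) lies.
GINS2: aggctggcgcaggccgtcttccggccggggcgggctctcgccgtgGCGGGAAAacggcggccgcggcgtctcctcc
CDT1: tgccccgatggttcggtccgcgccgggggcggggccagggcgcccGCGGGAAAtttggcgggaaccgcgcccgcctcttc
E2F2: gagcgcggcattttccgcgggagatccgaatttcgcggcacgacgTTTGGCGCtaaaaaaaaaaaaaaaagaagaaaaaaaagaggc
UHRF1: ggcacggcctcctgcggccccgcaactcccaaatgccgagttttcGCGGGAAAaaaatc

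In GRCh38.p14 these are chr16:85688955-85689030 on the minus strand for GINS2, chr16:88803709-88803788 on the plus strand for CDT1, chr1:23531234-23531320 on the minus strand for E2F2 and chr19:4909442-4909500 on the plus strand for UHRF1. The first base of the motif lies 31, 35, 42 and 14 bases before the start of GINS2, CDT1, E2F2 and UHRF1, in that order. GINS2, CDT1 and UHRF1 carry the site TTTCCCGC on the opposite strand, printed here as its complement GCGGGAAA, and E2F2 carries TTTGGCGC.

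The 4 replication genes given by array above were also lower on the DHT arrays. DHT and enzalutamide are both compared here with the same 3 vehicle arrays, so the 2 sets of changes share them. MCM4 measured 7.35, 7.38 and 7.26 with DHT, below its enzalutamide arrays and its vehicle arrays alike (DHT minus vehicle -1.35 ± 0.09, adjusted p = 1.07e-06). CDC45 measured 8.16, 8.26 and 8.17 with DHT (-0.68 ± 0.08, adjusted p = 7.08e-05). UHRF1 measured 6.65, 6.53 and 6.53 with DHT (-0.96 ± 0.10, adjusted p = 4.3e-05). For GINS2 the DHT arrays measured 5.72, 5.76 and 6.18, next to 5.71, 6.09 and 5.82 with enzalutamide. On the arrays of enzalutamide with dexamethasone MCM4 measured 8.48 each time, CDC45 8.77, 8.83 and 8.85, and UHRF1 7.27, 7.50 and 7.55, above the arrays of enzalutamide alone.

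**Figure D3:**
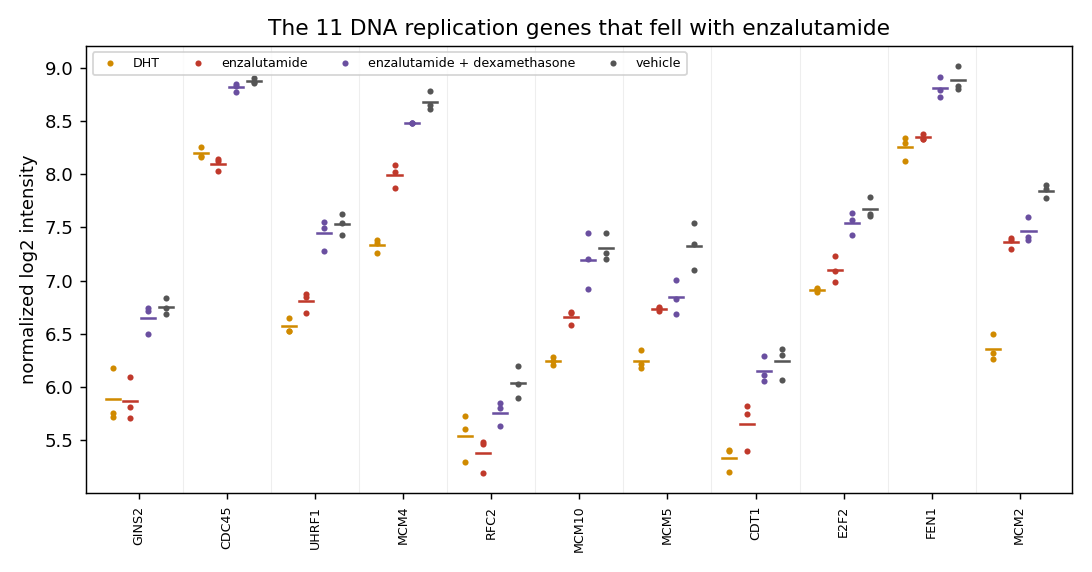
Normalized log2 intensity of the 11 DNA replication genes that fell, for each array of DHT, enzalutamide, enzalutamide with dexamethasone and vehicle, left to right within a gene, with a bar at each group's mean. The enzalutamide arrays lie below the vehicle arrays for all 11 genes, and the means of all but CDC45, GINS2 and RFC2 are lower still on the DHT arrays.

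Whether the antagonist mirrored the agonist was tested gene by gene. The sum of the DHT change and the enzalutamide change is 0 for a gene moved equally far in opposite directions, and it is negative where vehicle lies above the midpoint of the DHT and enzalutamide means. The vehicle arrays enter this sum with weight 2. It differed from 0 for 471 genes (4.13%), 233 positive and 238 negative (2.09%), and for 202, 271 and 237 genes without vehicle replicate 1, 2 or 3. Under median scaling 113 genes differed, 96 positive and 17 negative (85% positive, against 49.5%). With the median over the kept probes 323 differed, 175 positive and 148 negative. Of the 50 replication genes 24 were negative and 0 positive, with 20 negative without vehicle replicate 3, 19 without vehicle replicate 1 and 6 under median scaling.

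KLK2 came closest to a mirror image among the kallikreins and fusion genes. Its DHT arrays measured 12.46, 12.38 and 12.45, and the sum was -0.01 ± 0.14 (adjusted p = 0.978). The sums of SLC45A3 (0.20 ± 0.15), ERG (0.13 ± 0.18), KLK3 (0.43 ± 0.20), TRPM8 (-0.31 ± 0.16) and CCN3 (-0.40 ± 0.20) did not pass the test either, which does not show that the changes were equal in size. FKBP5 and TMPRSS2 did differ: DHT moved FKBP5 by 2.39 ± 0.10 and enzalutamide by -0.96 ± 0.10 (sum 1.43 ± 0.16, adjusted p = 0.00089), and the TMPRSS2 sum was 0.99 ± 0.14 (adjusted p = 0.00278).

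Some genes moved much farther with DHT than with enzalutamide. NBL1, a secreted BMP antagonist, measured 8.51, 8.68 and 8.69 with enzalutamide, 10.56, 10.52 and 10.39 with DHT, and 8.56, 8.51 and 8.50 with vehicle (sum 2.07 ± 0.15, adjusted p = 4.17e-05). REG4, a secreted lectin, measured 11.02, 10.95 and 11.13 with enzalutamide, 7.28, 7.07 and 7.14 with DHT, and 10.30, 10.54 and 10.58 with vehicle (sum -2.75 ± 0.18, adjusted p = 4.17e-05). NCAPD3 measured 6.32, 6.34 and 6.53 with enzalutamide, 10.00, 10.13 and 10.25 with DHT, and 6.85, 7.28 and 6.90 with vehicle (sum 2.50 ± 0.21, adjusted p = 0.000116). In NCAPD3 and REG4 the DHT arrays lay about 3 log2 units from vehicle and the enzalutamide arrays under 1. The enzalutamide changes of both genes were still called, for REG4 at 0.56 ± 0.10 (adjusted p = 0.0189). The REG4 call was lost without any of the enzalutamide arrays or vehicle replicate 1 (adjusted p up to 0.0835). NBL1 was not called with enzalutamide (0.10 ± 0.09, adjusted p = 0.647).

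MAOA and CFAP69 showed the reverse, a fall with enzalutamide beside DHT arrays near vehicle. MAOA measured 10.46, 10.54 and 10.41 with DHT, a DHT change of -0.02 ± 0.08 (sum -1.11 ± 0.14, adjusted p = 0.00174). CFAP69, a cilia- and flagella-associated gene, measured 6.84, 6.58 and 6.76 with enzalutamide, 7.53, 7.67 and 7.58 with DHT, and 7.83, 7.81 and 7.75 with vehicle (sum -1.27 ± 0.15, adjusted p = 0.00105). GRIN3A and HSD17B6 were lower with either agent. GRIN3A measured 5.75, 5.64 and 5.36 with enzalutamide, 5.72, 5.85 and 5.90 with DHT, and 6.63, 6.87 and 6.54 with vehicle (sum -1.95 ± 0.21, adjusted p = 0.000724). BAMBI was higher with either agent, at 7.53, 7.60 and 7.75 with DHT (sum 1.60 ± 0.19, adjusted p = 0.00089).

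Of 18 cholesterol synthesis genes tested, HMGCS1, EBP, MSMO1, ACAT2 and DHCR7 fell (0.999% of all genes did) and 0 rose by limma's test. At an unadjusted p under 0.05, 9 were lower and 1 higher, against 6.64% and 7.9% of all genes. The list median was -0.29. HMGCS1, which makes the precursor of mevalonate, measured 10.04, 9.98 and 10.10 with enzalutamide and 10.77, 10.73 and 10.68 with vehicle (-0.68 ± 0.08, adjusted p = 0.00169). EBP, a sterol isomerase, measured 7.25, 7.26 and 7.10 with enzalutamide and 7.76, 7.61 and 7.85 with vehicle (-0.54 ± 0.10, adjusted p = 0.0168). The HMGCS1 call held without each array, and leaving out 1 array left 1 or 2 of the 5 (1 without any of the enzalutamide arrays or vehicle replicate 1). MSMO1 and ACAT2 were not called with the mean of their probes (-0.26 with an adjusted p of 0.398 and -0.25 with an adjusted p of 0.362). None of the 18 was called under median scaling, where 1 was lower at an unadjusted p under 0.05. With the median over the kept probes 2 of the list fell.

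Of 17 tested genes that sense and move sterols, 1 rose (0.832% of all genes did) and 2 fell (0.999% of all genes did). The list median was -0.065. INSIG1, the sterol-regulated anchor of the SREBP pathway, measured 9.55, 9.40 and 9.35 with enzalutamide and 10.09, 10.15 and 10.00 with vehicle (-0.65 ± 0.09, adjusted p = 0.00337). The lipoprotein receptor gene VLDLR changed by -0.78 ± 0.14 (adjusted p = 0.0157). ABCG1, which exports cholesterol, measured 8.18, 8.10 and 8.02 with enzalutamide and 7.45, 7.46 and 7.59 with vehicle (0.60 ± 0.09, adjusted p = 0.00579), although 1 of its 2 other probes had the opposite sign. INSIG1 fell while the exporter gene rose. Both calls held without each array in turn and were lost under median scaling (adjusted p = 0.545 for INSIG1 and 0.0633 for ABCG1). The mean of the ABCG1 probes was not called (0.17, adjusted p = 0.308). VLDLR lost its call without enzalutamide replicate 1 or 3 or vehicle replicate 1 or 2 (adjusted p up to 0.0691).

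Of 26 genes that glucocorticoids induce, 6 fell (0.999% of all genes did), MAOA, ZBTB16, ANGPTL4, FKBP5, CEBPD and CEBPB, and RGS2 rose (0.832% of all genes did). Falls numbered 4 or 5 with 1 array left out (4 without enzalutamide replicate 3 or vehicle replicate 1), 4 under median scaling and 5 with the median over the kept probes. The CEBPB call was lost without any single array (adjusted p up to 0.18) and the CEBPD call without enzalutamide replicate 3 or vehicle replicate 1 (adjusted p up to 0.0634). MAOA, ZBTB16 and FKBP5 are on the androgen-induced list as well. ANGPTL4, an inhibitor of lipoprotein lipase, measured 4.80, 5.16 and 4.97 with enzalutamide and 6.15, 5.80 and 5.97 with vehicle (-0.995 ± 0.13, adjusted p = 0.00304), but a second probe had the opposite sign and the mean of both was not called (-0.49 ± 0.15, adjusted p = 0.129). RGS2, an inhibitor of Gq signalling, changed by 0.57 ± 0.11 (adjusted p = 0.02), a call lost without replicate 1 or 2 of either group (adjusted p up to 0.087). RGS2 did not pass the test between enzalutamide with dexamethasone and enzalutamide alone (0.17 ± 0.11, adjusted p = 0.508).

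The fixed glucocorticoid markers SGK1, KLF9 and TSC22D3 did not pass. SGK1, an ion transport kinase, measured 5.57, 5.36 and 5.03 with enzalutamide and 5.13, 5.78 and 5.23 with vehicle (-0.06 ± 0.17, adjusted p = 0.917). KLF9 changed by -0.11 ± 0.11 (adjusted p = 0.719) and TSC22D3, also called GILZ, by 0.49 ± 0.15 (adjusted p = 0.155). NR3C2, the mineralocorticoid receptor, was the 1 call among 17 nuclear receptor genes tested (-0.56 ± 0.12, adjusted p = 0.041), where 0.999% of all genes fell. That call was lost without any single array (adjusted p up to 0.149). With dexamethasone added KLK2 was higher: it measured 12.20, 12.12 and 12.07 on the arrays of enzalutamide with dexamethasone and 11.23, 11.28 and 11.28 on those of enzalutamide alone (0.87 ± 0.08, adjusted p = 0.000108). The comparisons with vehicle and with the combination share the enzalutamide arrays.

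Few secretory and folding genes passed the test. Of 38 genes of endoplasmic reticulum folding SDF2L1 (-0.48 ± 0.09, adjusted p = 0.0206) and MANF (-0.38 ± 0.09, adjusted p = 0.0498) fell, as did 0.999% of all genes. The list median was -0.12, with 30 genes below 0 (48.6% of all genes were). ERP27, a disulfide isomerase-family protein, was the 1 that rose (0.832% of all genes did). It measured 7.61, 7.53 and 7.49 with enzalutamide and 6.79, 6.58 and 6.71 with vehicle (0.85 ± 0.10, adjusted p = 0.000998). The SDF2L1 call was lost without any single array but vehicle replicate 2, and the MANF call without any single array. Of 44 secretory vesicle genes 0 passed limma's test (8 lower at an unadjusted p under 0.05), the median was -0.10 and 33 were below 0. Under median scaling, which moved the median of all genes to 0.13, the medians were 0.029 for the folding list and 0.055 for the vesicle list. Glycosylation genes had 1 rise, PMM1, and 1 fall, UAP1, of 50 (0.832% of all genes rose and 0.999% fell).

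Of 12 neuroendocrine genes tested, SCGN and PEG10 rose (0.832% of all genes did) and 0 fell by limma's test (1 at an unadjusted p under 0.05). Both calls held without each array in turn and under median scaling. SCGN, a calcium sensor of hormone-secreting cells, measured 8.26, 8.18 and 8.30 with enzalutamide and 7.55, 7.56 and 7.49 with vehicle (0.71 ± 0.08, adjusted p = 0.00107). PEG10, an imprinted gene of retrotransposon origin, measured 7.95, 7.87 and 7.78 with enzalutamide and 6.93, 7.11 and 7.33 with vehicle (0.74 ± 0.12, adjusted p = 0.00852). Of 6 neuroendocrine markers on the array, CHGA, CHGB, INSM1 and DLL3 were detected on all 6 arrays, and SYP and NCAM1 on none. The summed level of these 6 markers was 579.5 to 617.4 with enzalutamide and 554.4 to 597.6 with vehicle.

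TSPAN8, a tetraspanin of epithelial cell surfaces, measured 9.92, 10.05 and 10.02 with enzalutamide and 9.31, 9.23 and 9.25 with vehicle (0.73 ± 0.08, adjusted p = 0.00077). Among the 19 therapy-related surface antigens it was the 1 rise (0.832% of all genes rose). The list also had 4 falls, STEAP1, STEAP2, TMPRSS2 and TMEFF2 (0.999% of all genes fell). These falls numbered 1, 2 and 2 without enzalutamide replicate 1, 2 or 3, 4, 2 and 2 without vehicle replicate 1, 2 or 3, and 0 under median scaling by limma (1 lower at an unadjusted p under 0.05). With the median over the kept probes there were 4 falls. Of 17 luminal genes only KLK3 was called, as a fall (0.999% of all genes fell). Of 24 interferon and antigen presentation genes 0 passed limma's test (2 lower at an unadjusted p under 0.05), and of 10 housekeeping genes 0 passed (1 higher at an unadjusted p under 0.05), with a median change of 0.00.

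**Figure D4:**
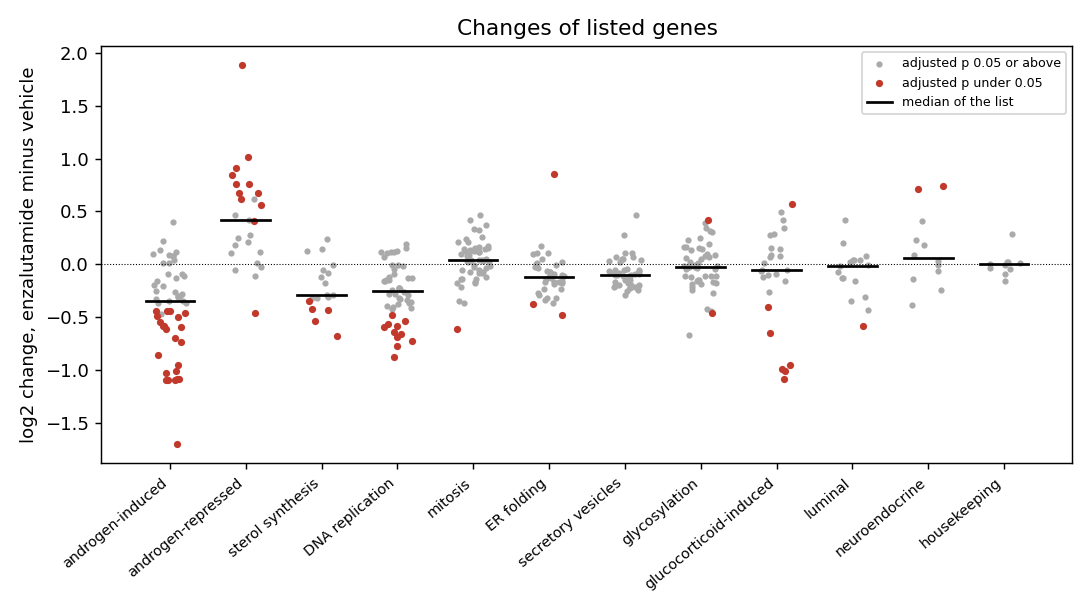
Log2 change with enzalutamide for every tested member of 12 gene lists, 1 point per gene, with members under an adjusted p of 0.05 in red and a bar at the list's median. The androgen-induced (median -0.35), sterol synthesis (-0.29) and DNA replication (-0.25) lists lie below 0, the androgen-repressed list (0.42) above, and the mitosis list is centred at 0.04.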

How the data were processed

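The deposited table holds, per the file headers, each probe's mean intensity over its beads, not normalized between arrays, with a detection p-value and bead numbers from GenomeStudio (per the submitters' processing notes, version not stated). RNA came from cultures of biological triplicates, hybridized by the authors as biotin-labelled cRNA with 1 array per culture. A second deposited table of intensities processed by the authors, with values below 0, was an alternative (42.45 added before log2). The values analysed were computed here with limma 3.58.1 in R 4.3.3: neqc (offset 16, detection p-values in place of controls, quantile normalization), giving log2 values, where the deposited intensities are linear. Of 47322 probes, 20265 were kept (detection p under 0.05 on at least 3 arrays); 5296 kept probes without a single gene symbol were set apart. Each gene kept its brightest probe. A group-means model over 12 arrays used lmFit and eBayes (8 residual, 3.71 prior degrees of freedom), tested on simulated data; an exact test of 3 against 3 arrays cannot go below 0.1. The genes, the 39 lists and the tests were chosen with earlier results of these data known. Named were the 15 largest rises and falls, up to 4 members a list, a fixed set of receptor targets and the leading asymmetric genes; genes named to complete a count were named after their values were seen. Array numbers limit the precision.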

Additional observations from a re-analysis of the deposited data

How the results depend on the processing

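The 209 calls for enzalutamide against vehicle became 354 with a stricter detection filter, 410 without background correction and 332 with an offset of 50. They became 48 under median scaling and 141 with the median over the kept probes. Fitting only the groups compared, where fewer arrays estimate the spread, left 36. With 1 array left out they numbered 77 to 133. The division of the arrays by probes that no array detected (vehicle and DHT replicates 1 and 2 and enzalutamide and combination replicate 1 in the first set) gave 246 calls as a block. Within the first and the second set limma called 0 and 0 genes, with 999 and 1598 at an unadjusted p under 0.05, a lone array being assumed to vary like the other groups. For the sum of the DHT and enzalutamide changes the 471 calls became 795 without background correction, 113 under median scaling and 323 with the median over the kept probes. They numbered 251 with only the groups compared, and 202 to 325 with 1 array left out. The main fit did not pair the samples by replicate number. Deviations of the enzalutamide and vehicle arrays with the same number correlated at 0.125, 0.0284 and 0.151, against -0.166 to 0.0729 for different numbers. Whether the numbers mark a pairing was not tested. With the number as a replicate block 193 genes were called, 102 up and 91 down. All 209 genes kept their sign in each of these alternatives. Among 101 named results 4 uncalled ones turned sign: the SEC23A log2 change (0.46) was -0.10 and the NBL1 log2 change (0.10) -0.028 within the first set, the SGK1 log2 change (-0.06) ranged from -0.18 to 0.14 with 1 array left out, at 0.087 without enzalutamide replicate 3 and 0.14 without vehicle replicate 2, and was 0.12 within the first set, and the KLF9 log2 change (-0.11) was 0.062 under median scaling and 0.043 within the second set. The cause of these differences was not tested. Where only some arrays detect a probe, its change is bounded by background.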

Other observations

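Of 5296 kept probes without a single gene symbol, 12 rose and 22 fell with enzalutamide in the test over those probes. They are not named here.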
